A study of Homo sapiens with 18 samples.

Results

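Desmosomes are the spot-like junctions that tie the keratin filaments of neighbouring epithelial cells together. Their adhesive part is made of desmogleins and desmocollins, calcium-dependent cadherins that span the membrane, and their cytoplasmic plaque holds plakoglobin, the plakophilins and desmoplakin, which anchors the keratins. In stratified epithelia the cadherins change with position: DSG2 and DSC2 are the broadly expressed pair of simple epithelia and basal cells, DSG3 and DSC3 mark the basal and lower layers, and DSG1 and PKP1 belong to the differentiating upper layers.

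The 10 desmosome genes described here were taken by name from the expression table: the desmogleins DSG1, DSG2 and DSG3, the desmocollins DSC2 and DSC3, and the plaque genes JUP, PKP1, PKP2, PKP3 and DSP. All 10 were found among its 22031 genes. RNA had been sequenced from 6 lines of MCF-10A cells, which are human breast epithelial cells that are not malignant, with 3 numbered replicate libraries per line. The methods describe the RNA as coming from independent biological replicates. The 5 dNER lines (deficient in nucleotide excision repair) each carried a lentiviral shRNA to 1 gene of that pathway (XPA, XPC, ERCC4, ERCC5, ERCC6), and the control line, shCTRL here and shCON in the labels, carried a non-target shRNA. Every line had been selected in puromycin as resistant colonies, each target was met by 1 shRNA construct, and there was 1 control line, so an effect of the target and a property of the single line cannot be told apart.

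Levels are TPM, transcript abundances that are scaled to a fixed total in each library and for transcript length and can therefore be compared between genes within a library. The table keeps no read depth, so errors of levels, sums, shares and ratios are SDs of 3 libraries. Differences are log2 fold changes of TPM + 0.5 from 1 limma fit over the 16382 genes that reached 1 TPM in 3 or more libraries, and a gene was called when Storey's q was under 0.05 and the fitted fold was above 1.5. The ± beside a log2 fold change is its standard error (SE) in that fit. Adding 0.5 TPM understates the fold of genes near 0. The fit covered all 18 libraries, and every dNER line was compared with the same 3 shCTRL libraries, so the 5 comparisons are not independent.

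Facts of the whole table bear on these values. The median gene lay below shCTRL in every dNER line, from -0.42 (shXPC) to -0.24 (shERCC6) on the log2 scale, and scaling the libraries by median-of-ratios size factors brought it to between -0.02 and 0.02. In shXPA this changed the split of all genes from 1955 higher and 5065 lower to 3110 and 2739, and for the mean of the 5 lines from 1285 and 4691 to 2272 and 1955. Calls that this scaling ends are therefore named at each gene. Each targeted gene was lower in its own line, from a log2 fold change of -0.54 for XPA, which missed the fold threshold and went to -0.20 after that scaling, to -1.22 for ERCC4. ERCC6 was at -1.16 in its own line and at -1.24, -1.38 and -1.27 in shXPA, shXPC and shERCC5, so its level does not set its own line apart. One uncharacterised entry, CTD-2328D6.1, took 26.5% of all TPM in shERCC4 replicate 1 and 3.44% to 7.58% in the other libraries. All 8 basal epithelial markers on the list (KRT5, KRT14, TP63, CDH1, KRT17 and LAMB3 among them) had at least 1 TPM in every library of every line. On average over the dNER lines 3 of the 8 rose and 2 fell, or 4 and 1 after median-of-ratios scaling. LAMB3 fell in every line, from log2 -1.20 in shERCC6 to -2.03 in shXPC, and KRT17 fell in shXPA (-2.25) and shERCC4 (-1.86). Of 10 mesenchymal markers 5 were tested and 4 fell on average over the dNER lines, FN1, CDH2, VIM and DCN, with a summed level of 2116 to 2223 TPM in shCTRL and 389 to 742 TPM in the dNER libraries. Of 8 luminal markers ESR1, PGR and KRT19 were not tested, and the list summed to 610.4 to 649 TPM in shCTRL and 349 to 774 TPM in the dNER libraries. Blood and endothelial markers summed to 4.72 to 11.5 TPM. In such bulk RNA, fewer cells of a type and less RNA per cell cannot be told apart.

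The 5 cadherin genes lie together on chromosome 18 (GENCODE 29, GRCh38), DSC3 and DSC2 on the minus strand and the desmogleins on the plus strand in the order DSG1, DSG4, DSG3 and DSG2. DSC3 spans 30990008 to 31042815, DSC2 31058840 to 31102522, DSG1 31318089 to 31357029, DSG3 31447795 to 31478702 and DSG2 31498043 to 31549008. The plaque genes are dispersed: DSP lies on chromosome 6 from 7541575 to 7586717, JUP on chromosome 17 from 41754604 to 41786931, PKP1 on chromosome 1 from 201283452 to 201332993, PKP2 on chromosome 12 from 32790745 to 32896840, and PKP3 on chromosome 11 from 392614 to 404908. The 250 bases before the RefSeq start (GRCh38.p14) were read for 8 of the 10 genes, all but PKP2 and PKP3, taking 1 start where JUP and DSC2 had a second one. Except for DSG3, these windows reach into the gene as spanned in GENCODE 29, so they are not wholly upstream by that annotation. The windows are shown for the 5 cadherin genes, neighbours on 1 chromosome that were called in different directions on the TPM as deposited. After median-of-ratios scaling no cadherin was called lower in any line. Each sequence runs 5′ to 3′ on the strand of the gene and ends at the base before the start. In DSG1 and DSG3 the capitals mark the longest run of bases that both hold. In the other 3 they mark GC boxes (GGGCGG), the E-box read by Snail and ZEB repressors (CAGGTG) and CCAAT boxes (CCAAT), each on either strand.
DSG1 (chr18:31317910-31318159, plus strand): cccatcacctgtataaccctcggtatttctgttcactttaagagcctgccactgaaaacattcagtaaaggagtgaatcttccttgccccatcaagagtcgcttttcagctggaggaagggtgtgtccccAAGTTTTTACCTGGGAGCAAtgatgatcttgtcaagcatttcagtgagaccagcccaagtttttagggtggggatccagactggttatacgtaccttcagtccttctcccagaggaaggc
DSG3 (chr18:31447491-31447740, plus strand): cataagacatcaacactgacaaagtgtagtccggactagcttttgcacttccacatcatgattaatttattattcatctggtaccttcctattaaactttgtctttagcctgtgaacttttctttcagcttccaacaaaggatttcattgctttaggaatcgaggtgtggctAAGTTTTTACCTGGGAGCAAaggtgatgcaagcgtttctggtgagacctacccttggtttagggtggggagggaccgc
DSG2 (chr18:31497927-31498176, plus strand): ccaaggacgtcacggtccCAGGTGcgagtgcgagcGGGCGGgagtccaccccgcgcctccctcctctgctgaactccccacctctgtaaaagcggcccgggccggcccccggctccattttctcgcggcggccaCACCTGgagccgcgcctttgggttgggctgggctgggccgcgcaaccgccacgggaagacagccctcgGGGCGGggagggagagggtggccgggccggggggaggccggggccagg
DSC3 (chr18:31042743-31042992, minus strand): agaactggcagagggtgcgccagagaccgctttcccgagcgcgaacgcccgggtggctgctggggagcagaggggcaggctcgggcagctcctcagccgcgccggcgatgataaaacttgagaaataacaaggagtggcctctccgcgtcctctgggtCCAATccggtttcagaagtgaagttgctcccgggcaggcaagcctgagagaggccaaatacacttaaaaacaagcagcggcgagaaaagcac
DSC2 (chr18:31102422-31102671, minus strand): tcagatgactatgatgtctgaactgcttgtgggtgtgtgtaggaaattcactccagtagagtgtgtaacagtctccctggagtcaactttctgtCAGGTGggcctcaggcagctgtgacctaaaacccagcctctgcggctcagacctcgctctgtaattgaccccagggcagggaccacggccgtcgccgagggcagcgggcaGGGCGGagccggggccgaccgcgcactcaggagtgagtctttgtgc

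The desmoglein promoters differed in composition. DSG1 and DSG3, which rose in 4 and 5 lines, were 48.0% and 42.8% G or C and held 3 and 4 CpG dinucleotides, and DSG2, which did not rise in any line, was 75.2% G or C with 26 CpG. Over 35116 RefSeq promoters the median was 58.0% G or C (quartiles 46.4% and 68.0%) and 11 CpG (quartiles 3 and 23). DSG1 and DSG3 shared a run of 20 bases, 120 bases before the start of DSG1 and 78 before that of DSG3, whereas the longest run in any other of the 28 pairs of the 8 promoters was 11 bases. DSC3 and DSC2 were nearer to each other in composition, at 60.4% with 18 CpG and 59.6% with 12 CpG. DSC3 rose in 5 lines, while DSC2 rose in 3 and was called lower in 1. DSP, which rose in 5 lines, had the richest of the 8, at 78.0% with 33 CpG. JUP, which rose in 3 lines, had 63.6% with 17 CpG, and PKP1, which rose in 4, had 67.6% with 17 CpG. Whether composition goes with the direction of change was not tested.

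GC boxes occurred in 5 of the 8 windows, with 2 in DSG2, 1 in DSC2, 7 in DSP, 2 in JUP and 1 in PKP1, against 42.6% of all promoters. The E-box CAGGTG occurred in DSG1, DSG2, DSC2 and DSP, against 17.5% of all promoters, and in DSG1 it is the cacctg near the 5′ end of the printed sequence. CCAAT was in DSC3 and JUP and is in 32.0% of all promoters. TATAAA (10.7% of all promoters), the AP-1 letters TGANTCA (6.57%) and the grainyhead letters AACNGGTT (1.49%), each sought on both strands, were in none of the 8. No 2 different motifs overlapped in these windows, a pair of GC boxes in DSP shared 1 base, and a match is a description of letters only.

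Most desmosome genes were higher in the dNER lines, with DSG3, DSC3 and DSP called higher in all 5, while among the cadherins DSG2 was called higher in no line and DSC2 was called lower in shERCC4. In shXPA, 8 members rose and 2 fell, where 11.9% of all genes tested were called higher and 30.9% lower. In shXPC 7 rose and 2 fell (9.89% and 38% of all genes), and in shERCC5 7 rose and none fell (9.97% and 28.3%). In shERCC6 6 rose and none fell (6.52% and 19.7%). In shERCC4 only 3 rose and 2 fell (4.38% and 30.9%). Members called higher in every dNER line numbered 3 of 10, against 2.01% of all genes, and none was called lower in every line, against 9.53%. These shares are for TPM as deposited, and the members were chosen with earlier results of these data known. Of the 3, DSG3 and DSP had shERCC4 folds of 1.505 and 1.511, each call lost in 3 of 18 fits that left out 1 library. After median-of-ratios scaling both were at log2 1.02. With the fold threshold inside the test only DSC3 kept its shERCC4 call. For the mean of the 5 lines 6 members rose and 1 fell, against 7.84% and 28.6%.

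DSG1 and PKP1 entered the test only through dNER libraries, since neither reached 1 TPM in any shCTRL library, so their calls are part of how they were admitted. Taking the lines in the order shXPA, shXPC, shERCC4, shERCC5, shERCC6, the other 8 members gave 6, 5, 3, 5 and 4 higher calls and 2, 2, 2, 0 and 0 lower calls. In that order the median log2 fold change of the 8 was 1.12, 1.20, 0.45, 0.93 and 0.58, beside -0.29, -0.42, -0.39, -0.29 and -0.24 for the genes tested as a whole.

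**Figure D1:**
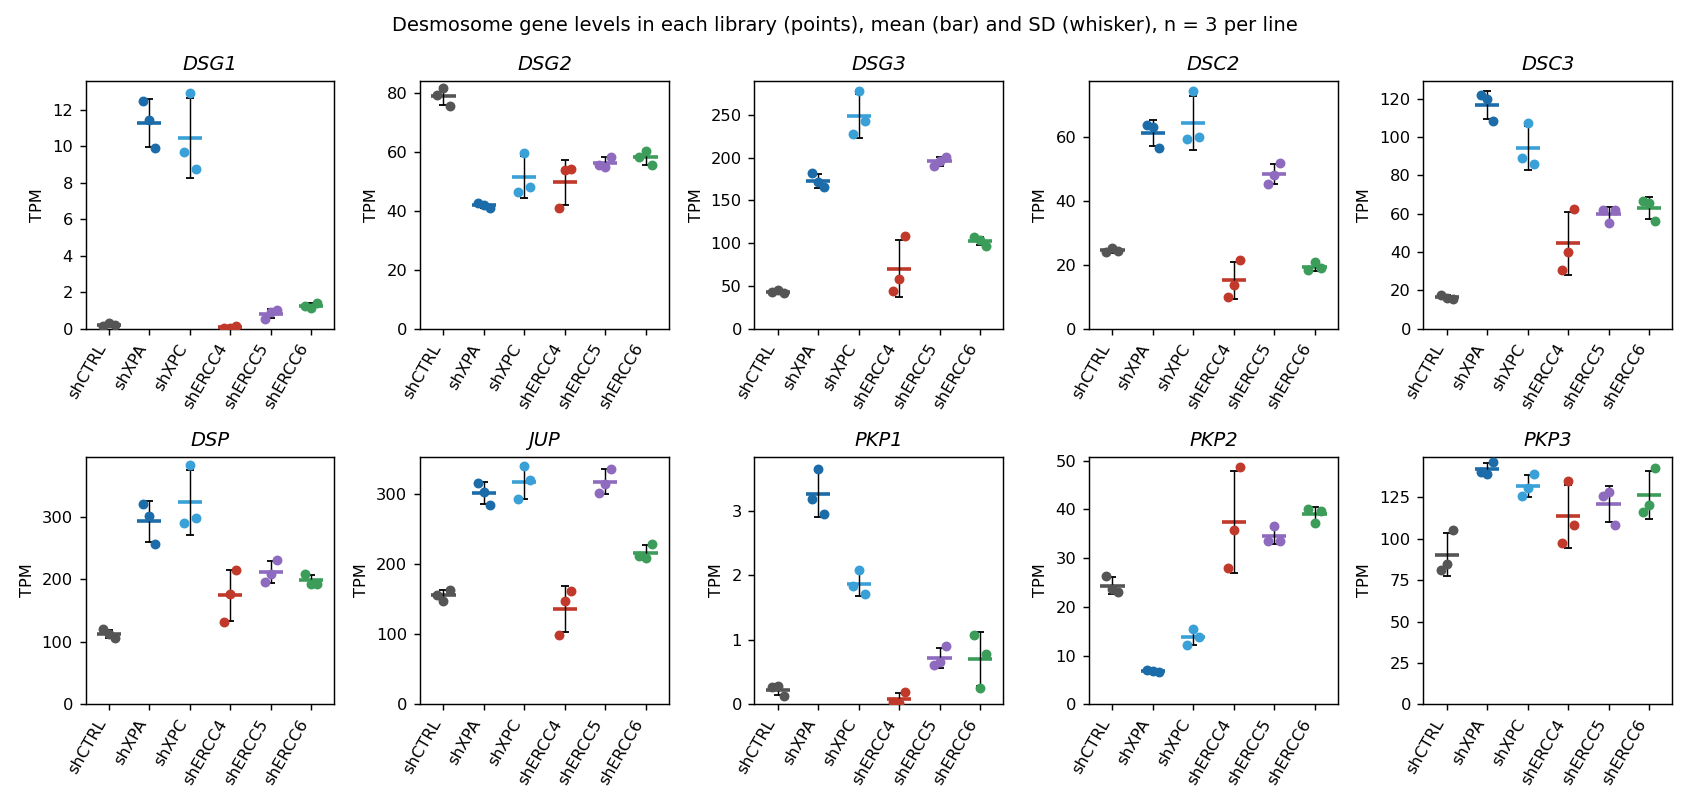
TPM of the 10 desmosome genes in each of the 18 libraries (points, linear axes from 0, a separate scale for each gene), with the mean (bar) and SD (whisker) of the 3 libraries of each line. DSG2 was highest in shCTRL, at 75.6 to 81.7 TPM, while DSG3 and DSC3 were lowest there, and the 3 shERCC4 libraries were the most scattered for DSG3, at 44.4 to 108 TPM.

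DSG3, the desmoglein of basal keratinocytes and the main antigen of pemphigus vulgaris, stood at 42.9, 45.8 and 41.6 TPM in the shCTRL replicates. It was at 182, 171 and 166 TPM in shXPA and at 227, 278 and 242 TPM in shXPC. It was at 190.2, 196 and 200.4 TPM in shERCC5 and at 107, 103 and 97.1 TPM in shERCC6. These 12 libraries all lay above shCTRL, without overlap. The log2 fold changes of the same 4 lines, in that order, were 1.98 ± 0.20 (SE), 2.50, 2.16 and 1.23, the highest limma q being 8.5e-05. The shERCC4 libraries, at 44.4, 58.6 and 108 TPM, overlapped shCTRL, and the call there (log2 0.59, limma q = 0.0081) was lost without shERCC4 replicate 3 (0.23), without shCTRL replicate 1 (0.58) or without shCTRL replicate 3 (0.56). After median-of-ratios scaling it was 1.02.

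In order of its mean, DSG3 was highest in shXPC (249.1 TPM), then shERCC5 (196), shXPA (173), shERCC6 (102), shERCC4 (70.4) and shCTRL (43.4). Neighbours among the first 3 did not differ beyond the thresholds, the intervals of their log2 differences being -0.09 to 0.77 for shXPC over shERCC5 and -0.25 to 0.61 for shERCC5 over shXPA. From shXPA downwards each step passed, although the step from shERCC6 to shERCC4 (0.64, limma q = 0.022) was lost after median-of-ratios scaling (shERCC4 against shERCC6 then at -0.45) and without shERCC4 replicate 1 (-0.36) or 2 (-0.56) or shERCC6 replicate 1 (-0.61) or 2 (-0.63).

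DSG2, the desmoglein found in nearly every desmosome-bearing tissue, behaved differently from DSG3, its neighbour on the chromosome. It was at 79.5, 81.7 and 75.6 TPM in shCTRL, at 42.8, 41.9 and 41.0 TPM in shXPA and at 46.5, 59.7 and 48.2 TPM in shXPC. It was at 41.0, 53.9 and 54.3 TPM in shERCC4, at 55.6, 54.9 and 58.5 TPM in shERCC5 and at 58.4, 60.5 and 55.5 TPM in shERCC6. All 15 dNER libraries lay below all 3 shCTRL libraries, in a table whose median gene was also lower. DSG2 fell in shXPA (log2 -0.91 ± 0.11, limma q = 9.2e-07), shXPC (-0.62) and shERCC4 (-0.67), and at -0.48 in shERCC5 and -0.44 in shERCC6 it missed the fold threshold. After median-of-ratios scaling the values were -0.56, -0.13, -0.24, -0.14 and -0.20, and no call remained in any line. The shXPC call was also lost without shXPC replicate 1 (-0.55) or replicate 3 (-0.58), and the shERCC4 call without shERCC4 replicate 1 (-0.54).

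The order of DSG2 was shCTRL (79.0 TPM), shERCC6 (58.2), shERCC5 (56.3), shXPC (51.5), shERCC4 (49.7) and shXPA (41.9). No pair of neighbours in that order passed both thresholds, and the 10 differences between dNER lines held no call for this gene.

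DSG1, the desmoglein of differentiated epidermis and the antigen of pemphigus foliaceus, was close to silent in shCTRL at 0.155, 0.341 and 0.200 TPM. It reached 12.5, 11.4 and 9.89 TPM in shXPA and 9.69, 12.9 and 8.73 TPM in shXPC, means that were 48.6 and 45.05 times the shCTRL mean. It reached 0.553, 0.896 and 1.01 TPM in shERCC5 and 1.26, 1.13 and 1.42 TPM in shERCC6. Those 4 lines did not overlap shCTRL, and the log2 fold changes were 4.01 ± 0.21, 3.89, 0.84 and 1.28 (limma q from 6.3e-11 to 0.0011). DSG1 entered the test only through dNER libraries, so these calls are part of how it was admitted. In shERCC5 the call was lost with a pseudocount of 1 (0.56). In shERCC4 DSG1 was at 0.0499, 0.0588 and 0.165 TPM, overlapping shCTRL, and was not called (-0.30, limma q = 0.084), although a pseudocount of 0.1 called it lower (-0.80).

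As a description, under the same limit of admission, DSG1 had 3 levels. shXPA (11.3 TPM) and shXPC (10.4 TPM) did not differ from each other beyond the thresholds, with an interval of -0.33 to 0.56 on the log2 scale, and shXPC lay 2.61 above shERCC6. shERCC6 (1.27 TPM) and shERCC5 (0.819 TPM) did not differ beyond the thresholds either (interval -0.01 to 0.88), and shCTRL and shERCC4 were lowest.

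DSC3, the desmocollin of basal layers, rose in all 5 lines. It was at 17.6, 15.8 and 15.7 TPM in shCTRL, at 122, 119.6 and 109 TPM in shXPA and at 89.2, 107 and 86.0 TPM in shXPC. It was at 30.5, 40.2 and 62.7 TPM in shERCC4, at 61.8, 55.2 and 62.0 TPM in shERCC5 and at 66.8, 65.8 and 56.3 TPM in shERCC6. Every dNER library was above every shCTRL library, with the lowest at 30.5 TPM in shERCC4 replicate 1. The log2 fold changes were 2.80 ± 0.18, 2.49, 1.36, 1.84 and 1.91 in the order shXPA, shXPC, shERCC4, shERCC5 and shERCC6, and the call held in all 5 lines under every alternative run, the fold threshold inside the test included. In the order of means only the lowest step, shERCC4 (44.5 TPM) over shCTRL (16.3 TPM), passed both thresholds.

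DSC2, the broadly expressed desmocollin, was higher in some lines and lower in another. It was at 23.9, 25.4 and 24.4 TPM in shCTRL, at 63.9, 63.1 and 56.6 TPM in shXPA, at 59.3, 74.3 and 60.1 TPM in shXPC and at 45.4, 48.2 and 51.7 TPM in shERCC5. It was at 10.1, 13.7 and 21.6 TPM in shERCC4 and at 18.3, 21.0 and 19.0 TPM in shERCC6. The first 3 dNER lines lay wholly above shCTRL and the last 2 wholly below. DSC2 rose in the first 3, by log2 1.30 ± 0.18, 1.37 and 0.96, and it was at -0.33 in shERCC6 (limma q = 0.064). It fell in shERCC4 (-0.75, limma q = 9.3e-04), a call that was lost after median-of-ratios scaling (-0.33) and without shERCC4 replicate 1 (-0.50).

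For DSC2 the lines formed an upper set of shXPC (64.5 TPM), shXPA (61.2) and shERCC5 (48.4) and a lower set of shCTRL (24.6), shERCC6 (19.4) and shERCC4 (15.1). Only the step between the sets, shERCC5 over shCTRL, passed both thresholds. Members called higher in at least 1 dNER line and lower in at least 1 other were DSC2 and PKP2, 2 of 10, against 2.55% of all genes tested.

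Together the 5 cadherins summed to 164 ± 5.84 TPM (SD, n = 3) in shCTRL, 404 ± 20.4 in shXPA, 470 ± 54.1 in shXPC, 180 ± 61.7 in shERCC4, 361 ± 11.2 in shERCC5 and 244 ± 12.9 in shERCC6. The make-up of that sum turned over, which a share within a library shows without regard to scaling between libraries. DSG2 made up 64.4% ± 0.476 of the desmoglein TPM in shCTRL, 18.5% ± 0.426 in shXPA, 16.5% ± 0.487 in shXPC, 43.1% ± 8.41 in shERCC4, 22.3% ± 0.424 in shERCC5 and 36.0% ± 0.834 in shERCC6. DSG3 rose from 35.4% of desmoglein TPM in shCTRL to 76.5%, 80.1%, 56.8%, 77.4% and 63.3% in the same order. The shERCC4 libraries held 48.0%, 47.9% and 33.4% DSG2, each below the lowest shCTRL library, at 63.9%.

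The ratio of DSG3 to DSG2 was 0.550 ± 0.0104 in shCTRL and 4.13 ± 0.102 in shXPA, 4.86 ± 0.193 in shXPC, 1.39 ± 0.525 in shERCC4, 3.47 ± 0.0844 in shERCC5 and 1.76 ± 0.0638 in shERCC6. The highest shCTRL library was at 0.560 and the lowest dNER library, of shERCC4, at 1.08, so the desmoglein of greater level was DSG2 in every control library and DSG3 in every dNER library. The desmocollins changed over in the same manner: DSC3 to DSC2 was 0.666 ± 0.0603 in shCTRL, 1.91 in shXPA, 1.46 in shXPC, 2.96 in shERCC4, 1.24 in shERCC5 and 3.25 in shERCC6, with the lowest dNER library at 1.15, in shERCC5, and the highest control library at 0.735. These ratios carry no test.

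**Figure D2:**
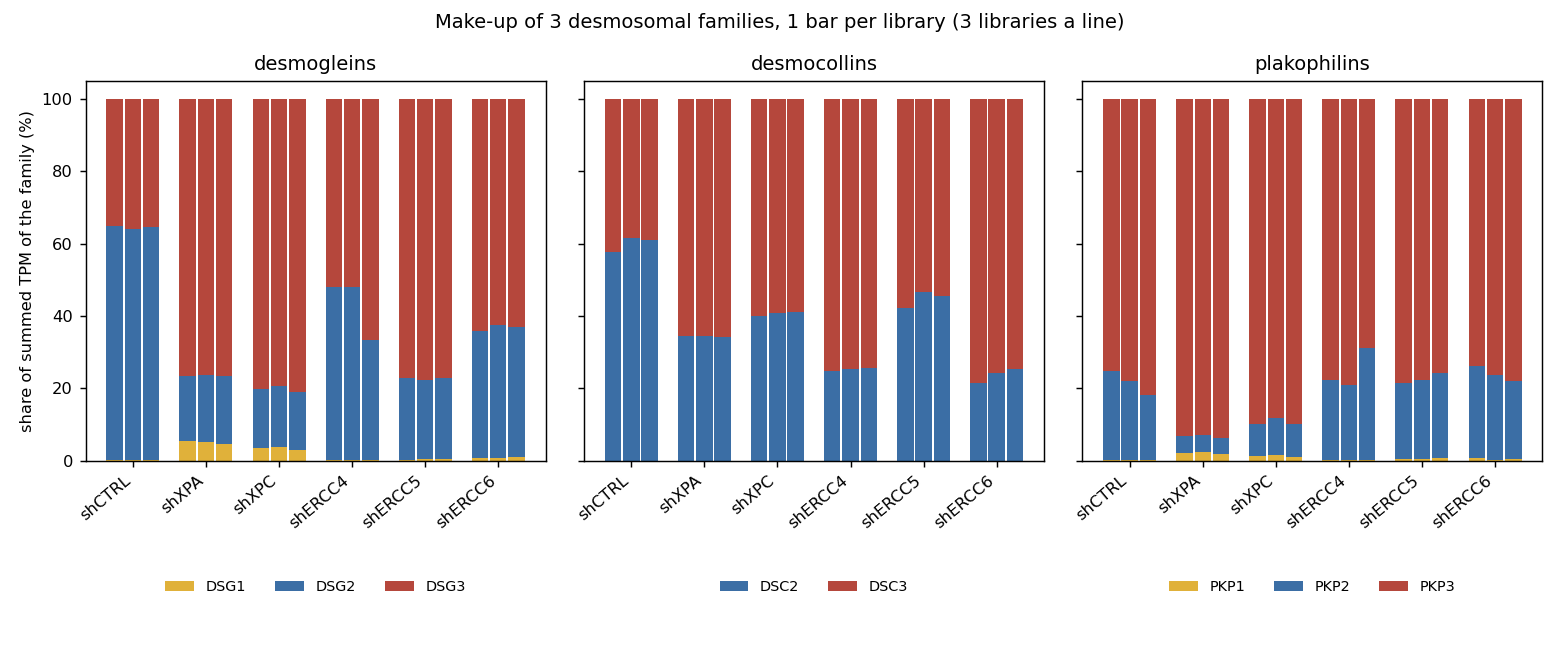
Share of each gene in the summed TPM of its family (percent, stacked to 100), 1 bar per library and 3 libraries per line. The families are desmogleins (DSG1, DSG2 and DSG3), desmocollins (DSC2 and DSC3, as DSC1 has no values) and plakophilins (PKP1, PKP2 and PKP3). DSG2 held 64.4% of desmoglein TPM in shCTRL and 16.5% to 43.1% on average in the dNER lines, DSC3 went from 39.9% of desmocollin TPM to line means of 55.2% to 76.4%, and the PKP2 share of plakophilin TPM went from 21.4% to 4.52% in shXPA and 9.38% in shXPC.

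Among the plaque genes, DSP rose in all 5 lines and JUP in 3, while the plakophilins each followed a course of their own. DSP encodes desmoplakin, the plakin that links the plaque to keratin filaments. It was at 120.02, 113 and 107 TPM in shCTRL, at 321, 302 and 257 TPM in shXPA and at 289.8, 383 and 298 TPM in shXPC. It was at 132, 177 and 214 TPM in shERCC4, at 196, 208 and 231 TPM in shERCC5 and at 209, 193 and 193 TPM in shERCC6. No dNER library overlapped shCTRL. The log2 fold changes were 1.36 ± 0.15, 1.498, 0.60, 0.90 and 0.81 in the order shXPA, shXPC, shERCC4, shERCC5 and shERCC6 (limma q at most 0.0011). The shERCC4 call, at a fold of 1.51, was lost without shERCC4 replicate 2 (0.57), shERCC4 replicate 3 (0.43) or shCTRL replicate 3 (0.55), and after median-of-ratios scaling the value was 1.02.

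JUP encodes plakoglobin, the armadillo protein that binds cadherin tails in desmosomes and in adherens junctions. It was at 157, 147 and 163 TPM in shCTRL, at 316, 303 and 285 TPM in shXPA, at 292, 339.9 and 319.9 TPM in shXPC and at 301, 315 and 336 TPM in shERCC5. It was at 212, 208 and 229 TPM in shERCC6 and at 99.1, 148 and 162 TPM in shERCC4, the only line to overlap shCTRL. JUP rose in shXPA (log2 0.95 ± 0.13), shXPC (1.03) and shERCC5 (1.03). In shERCC6 it was at 0.48, under the fold threshold, and after median-of-ratios scaling at 0.71 it was called. In shERCC4 it was at -0.22 (limma q = 0.063), and scaling turned that value to 0.21, again without a call.

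PKP1, the plakophilin of differentiated layers whose loss causes ectodermal dysplasia with skin fragility, followed DSG1 from a like low level. PKP1 too was admitted to the test only through dNER libraries. It was at 0.273, 0.281 and 0.135 TPM in shCTRL, at 3.18, 3.66 and 2.95 TPM in shXPA and at 1.84, 2.08 and 1.71 TPM in shXPC. It was at 0.614, 0.656 and 0.900 TPM in shERCC5, at 1.07, 0.254 and 0.779 TPM in shERCC6 and at 0.0311, 0.0298 and 0.192 TPM in shERCC4. shERCC6 and shERCC4 overlapped shCTRL. PKP1 rose in shXPA (log2 2.37 ± 0.28), shXPC (1.71), shERCC5 (0.74) and shERCC6 (0.66), and was at -0.33 in shERCC4, where a pseudocount of 0.1 called it lower (-0.92). The shERCC6 call (limma q = 0.028) was lost with the Benjamini-Hochberg adjustment in limma (q = 0.071), without shERCC6 replicate 1 (0.43) or 3 (0.58) or shCTRL replicate 3 (0.56), and with a pseudocount of 1 (0.44). With that pseudocount the shERCC5 call was lost too (0.49).

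PKP2, the plakophilin of simple epithelia and of the heart, moved in opposite directions between lines. It was at 26.3, 23.7 and 23.0 TPM in shCTRL, at 7.05, 6.85 and 6.73 TPM in shXPA and at 12.3, 15.4 and 13.9 TPM in shXPC. It was at 27.99, 35.8 and 48.7 TPM in shERCC4, at 33.6, 36.5 and 33.6 TPM in shERCC5 and at 40.04, 37.1 and 39.7 TPM in shERCC6. The shXPA and shXPC libraries lay below all shCTRL libraries and the other 9 dNER libraries above them. PKP2 fell in shXPA (log2 -1.75 ± 0.15, limma q = 1.2e-08) and shXPC (-0.80) and rose in shERCC6 (0.67). It was at 0.58 in shERCC4 and 0.50 in shERCC5, both under the fold threshold. Median-of-ratios scaling kept the fall in shXPA (-1.41), ended that in shXPC (-0.32), and brought shERCC4 (1.00) and shERCC5 (0.84) past the thresholds. The fold in shERCC4 was also past it without shERCC4 replicate 1 (0.77).

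PKP3, the plakophilin present through most layers of stratified epithelium, moved little. It was at 81.1, 84.6 and 105 TPM in shCTRL, at 141, 139 and 146 TPM in shXPA, at 126, 130.4 and 139 TPM in shXPC and at 97.4, 135 and 108 TPM in shERCC4. It was at 126, 129 and 108 TPM in shERCC5 and at 116, 121 and 143 TPM in shERCC6. Only shERCC4 overlapped shCTRL. PKP3 rose in shXPA (log2 0.66 ± 0.12, limma q = 8.6e-05), and at 0.55, 0.32, 0.42 and 0.49 in shXPC, shERCC4, shERCC5 and shERCC6 it was under the fold threshold. After median-of-ratios scaling it was called in all 5 lines, at 1.01, 1.04, 0.75, 0.77 and 0.72. No pair of neighbours in its order of levels passed the thresholds.

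The plakophilins summed to 115 ± 11.6 TPM in shCTRL and to 147 to 166 TPM on average in the dNER lines. PKP2 made up 21.4% ± 3.29 of that sum in shCTRL, 4.52% ± 0.183 in shXPA and 9.38% ± 0.888 in shXPC, and 24.7% ± 5.41, 22.2% ± 1.25 and 23.5% ± 1.93 in shERCC4, shERCC5 and shERCC6. PKP3 to PKP2 was 3.74 ± 0.765 in shCTRL, 20.7 ± 0.930 in shXPA and 9.59 ± 0.964 in shXPC. In shERCC4, shERCC5 and shERCC6 it was 3.16, 3.50 and 3.25, within the range of the shCTRL libraries (3.08 to 4.58) on average. All 10 genes together summed to 547 ± 8.72 TPM in shCTRL, 1150.5 ± 65.6 in shXPA, 1258 ± 129 in shXPC, 642 ± 150.0 in shERCC4, 1046 ± 36.8 in shERCC5 and 825 ± 12.9 in shERCC6.

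**Figure D3:**
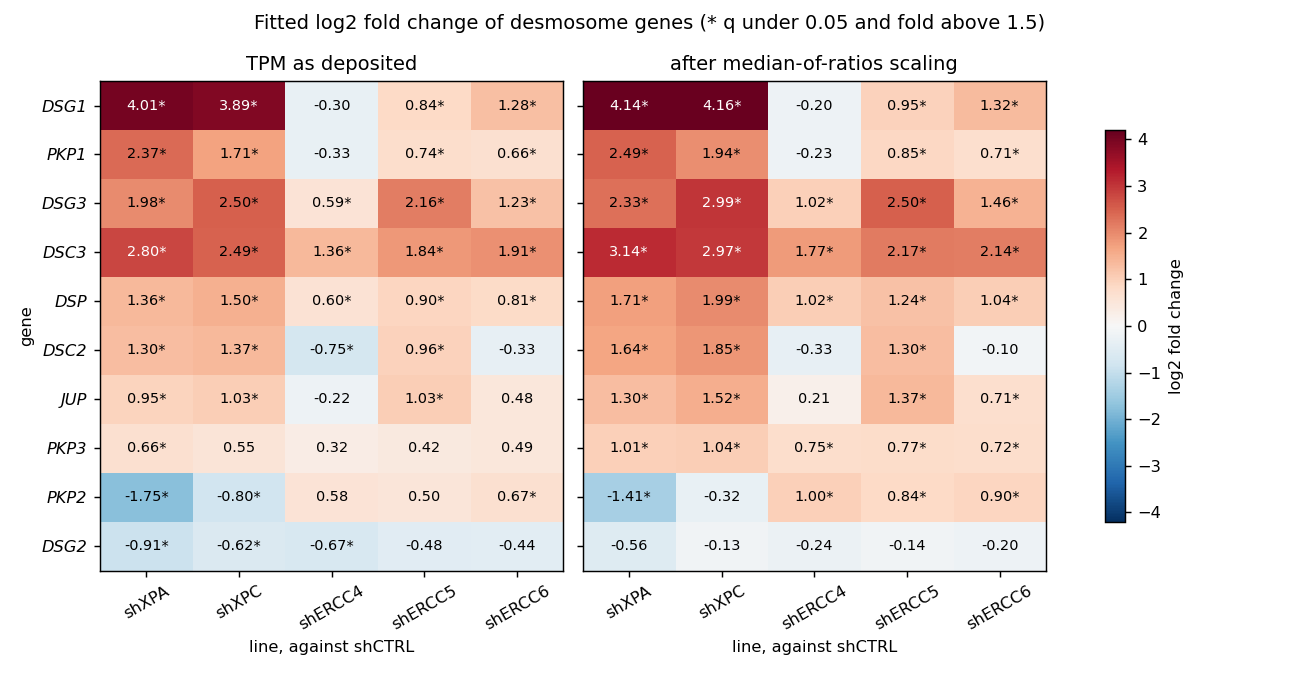
Fitted log2 fold change against shCTRL of each desmosome gene (rows) in each dNER line (columns), on the TPM as deposited (left) and after median-of-ratios scaling (right), with an asterisk where q was under 0.05 and the fold above 1.5. DSG3, DSC3 and DSP were called higher in all 5 lines on both scales, and the DSG2 values, -0.91 to -0.44 as deposited, held no call after scaling.

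The 5 dNER lines also differed among themselves. Members called in either direction numbered 8 of 10 between shXPA and shERCC4 (24.6% of all genes tested) and 8 between shXPC and shERCC4 (21.3%). They numbered 6 between shXPA and shERCC6 (31.5%), 6 between shXPC and shERCC6 (28.9%), 5 between shXPC and shERCC5 (10.2%) and 5 between shERCC4 and shERCC5 (14.4%). They numbered 4 between shXPA and shERCC5 (17.7%), 4 between shERCC4 and shERCC6 (10.7%), 2 between shXPA and shXPC (15.5%) and 2 between shERCC5 and shERCC6 (15.5%). Of these 100 differences 50 were thus called, and 33 of 80 without DSG1 and PKP1, which entered the test only through the lines where they were high. Without that pair the counts between shXPA and shERCC4 and between shXPC and shERCC4 were each 6 of 8. Between neighbouring dNER lines in the order of a member's level, 6 of 35 steps passed. Among the 6 are shXPC over shERCC6 for DSG1, and shXPA over shXPC and shXPC over shERCC5 for PKP1, under the same limit of admission. At least 1 pair of dNER lines was called for 8 of the 10 members, all but DSG2 and PKP3, and for 56.3% of all genes tested. DSG1 and PKP1 are among those 8. The widest spans between dNER lines were 4.31 for DSG1 (shXPA over shERCC4, limma q = 1.3e-10), 2.69 for PKP1 (shXPA over shERCC4, limma q = 5.3e-07) and -2.42 for PKP2 (shXPA against shERCC6, limma q = 1.0e-09), all on the log2 scale. The shERCC4 libraries were spread widely in several members, DSG3 at an SD of 33.6 TPM and DSC3 at 16.5 TPM, and replicate 1, where CTD-2328D6.1 took 26.5% of TPM, was the lowest of the 3 for DSG2, DSG3, DSC2, DSC3, DSP, JUP, PKP2 and PKP3. With that entry left out and the rest rescaled, DSG2 in shERCC4 was at -0.52 and no longer called, and PKP2 at 0.73 was called higher.

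In chromosomal order DSC3, DSC2, DSG1, DSG4 and DSG3 were all called higher in shXPA, shXPC and shERCC5, and DSG2 at the end of the row was not. DSC1, annotated between DSC2 and DSG1, has no values in the data, so the row is not complete. DSG4, the desmoglein of hair and upper epidermis, lies between DSG1 and DSG3, and was at 0.164 ± 0.0527 TPM in shCTRL and at 0.687, 3.17 and 0.999 TPM in shXPA, shXPC and shERCC5. It rose there by log2 0.82, 2.46 and 1.17, and in shERCC4 (-0.30) and shERCC6 (-0.20) it was not called. Like DSG1 and PKP1, DSG4 entered the test only through dNER libraries. CDH2, which encodes N-cadherin and lies on the same chromosome from 27950966 to 28177446, fell in all 5 lines, from 19.0 ± 0.991 TPM in shCTRL to means of 0.801 TPM in shXPC to 4.11 TPM in shERCC6. B4GALT6, a galactosyltransferase gene on the far side of DSG2, fell in shXPA (log2 -1.09), shXPC (-2.25) and shERCC4 (-1.08), the last not called after median-of-ratios scaling (-0.67). DSC2 and DSG1 each overlap an antisense gene in the annotation, DSCAS and DSG1-AS1, and DSG2 overlaps DSG2-AS1. No source used here says that strand was used in quantification, so reads of such partners may not be told apart.

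**Figure D4:**
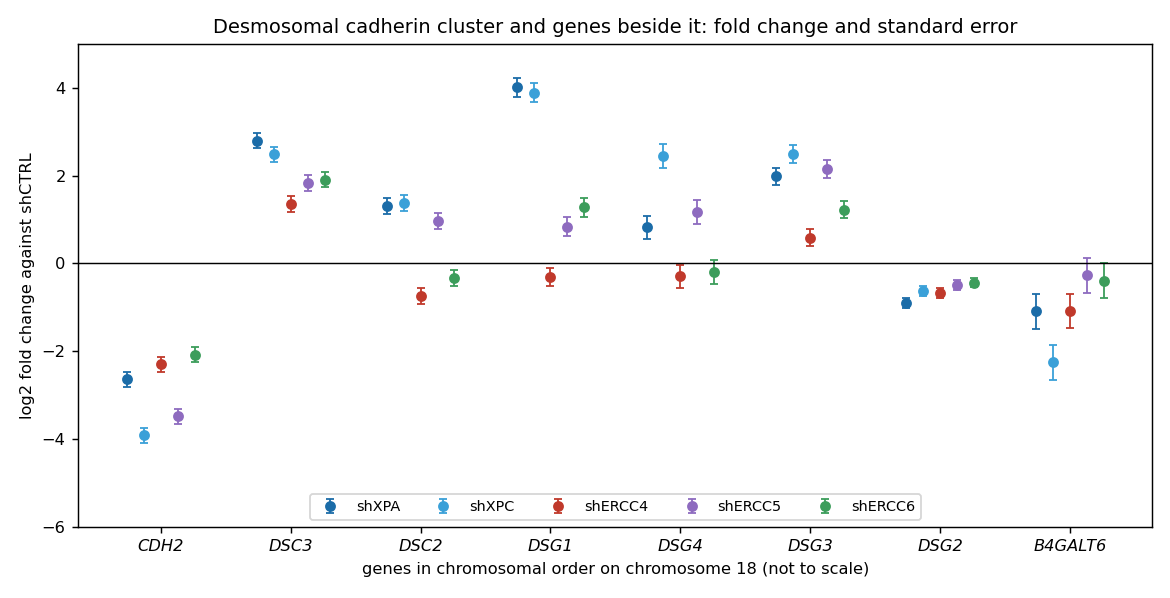
Log2 fold change against shCTRL (point) with its standard error (whisker) for the cadherin genes of chromosome 18 and genes beside them, in chromosomal order and not to scale, coloured by dNER line. DSC3 and DSG3 lay above 0 in all 5 lines while DSG2 and CDH2 lay below it, with DSG1 reaching 4.01 in shXPA.

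Over the 18 libraries, 29 of the 45 pairs of members correlated positively on the log2 scale and 15 had a Pearson r above 0.8. The closest pairs were DSC3 with DSP (r = 0.96), DSG1 with PKP1 (0.95), DSG3 with JUP (0.93) and DSG3 with DSP (0.92). The most opposed were DSG1 with PKP2 (-0.83), PKP1 with PKP2 (-0.80) and DSG2 with DSC3 (-0.74). DSG2 with PKP2 was at 0.51. The 18 points are 6 lines with 3 libraries each and share the scaling of the table, so these values are a description. DSG1 and PKP1 were moreover admitted only through dNER libraries and did not exceed 1.42 TPM outside shXPA and shXPC. Their r values carry that limit too.

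**Figure D5:**
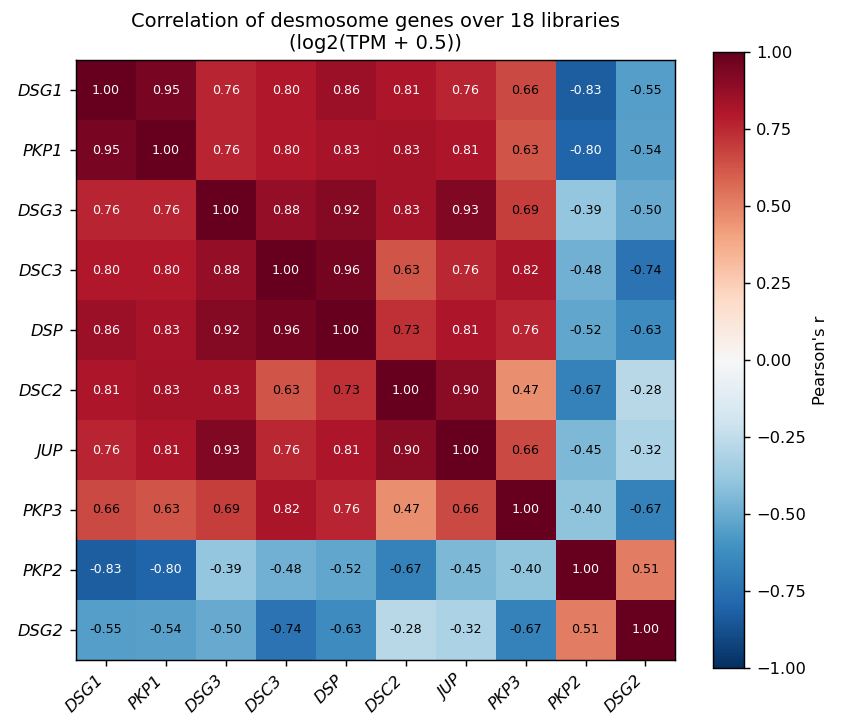
Pearson's r between members over 18 libraries, computed on log2(TPM + 0.5), with genes in the same order on both axes and colour from -1 (blue) to 1 (red). DSG1 and PKP1, both admitted to the test only through dNER libraries, were at 0.95. PKP2 and DSG2 were the only members with negative values against the others, down to -0.83 for PKP2 with DSG1.

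Among all genes with a mean of at least 5 TPM, the ones most like each member were as follows. KRT4, ANXA8 and KRT1 were closest to DSG1 (r = 0.98, 0.98 and 0.97 over 18 libraries), and ALDH3B2, ZNF750 and KRT4 to PKP1 (0.96, 0.96 and 0.96). For DSG3 they were KIAA0247, FXYD3 and NCOA7 (0.98, 0.98 and 0.98), and for DSC2 CRABP2, TMEM45A and CCDC64B (0.98, 0.97 and 0.97). For DSC3 they were PALMD, CLEC2B and S100A9 (0.99, 0.99 and 0.99), and for DSP ETS2, CXADR and S100A9 (0.97, 0.96 and 0.96). JUP was closest to HES2, IL1RN and CAPN1 (0.98, 0.97 and 0.97), and PKP3 to ARHGEF4, COX4I1 and SYT8 (0.89, 0.89 and 0.88). SETD7, TMOD3 and PGRMC1 were closest to DSG2 (0.96, 0.96 and 0.96), and ACAT2, NME1 and SYBU to PKP2 (0.96, 0.95 and 0.94).

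Of 8 further genes with a role in desmosomes or the cornified junction 7 were tested, and on average over the 5 lines PPL, PERP and DSG4 rose and CDSN fell, with KAZN also called higher after median-of-ratios scaling. Among all genes tested, 7.84% were called higher and 28.6% lower for this mean, or 2272 and 1955 of 16382 after that scaling. These values stand beside the list counts below too, and no list was tested against them. PERP, a tetraspan membrane protein needed for stable desmosomes, was at 220.5 ± 5.75 TPM in shCTRL and at 572, 705, 437 and 332 TPM in shXPA, shXPC, shERCC5 and shERCC6. It rose in those 4 by log2 1.37, 1.67, 0.99 and 0.59, and at 209.9 ± 73.8 TPM in shERCC4 it was not called. PPL, the plakin periplakin, was at 21.8 ± 2.11 TPM in shCTRL and rose to 75.5, 63.7, 38.2 and 59.3 TPM in shXPA, shXPC, shERCC4 and shERCC5, and at 30.7 TPM in shERCC6 it was under the fold threshold.

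CDSN, corneodesmosin of the cornified layer, was at 2.67 ± 0.305 TPM in shCTRL and fell in all 5 lines, from log2 -0.62 in shXPC, not called after median-of-ratios scaling (-0.22), to -2.11 in shERCC4, where 1 library is listed at 0. EVPL, the plakin envoplakin, was at 20.3 TPM in shCTRL and fell in shERCC4 alone, to 11.3 ± 2.05 TPM, a call that median-of-ratios scaling ended (-0.41) while calling it higher in shXPA (0.75) and shXPC (0.78). PKP4, a p120-catenin relative, fell in shXPC (log2 -1.02) and shERCC5 (-0.68), neither of them called after that scaling (-0.54 and -0.34). KAZN, which encodes kazrin, rose in shXPC (0.76), shERCC5 (0.67) and shERCC6 (0.66).

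Keratins, the filaments that desmoplakin anchors, were listed too. Of 15 keratins listed 14 were tested, and on average 7 rose and 3 fell, or 8 and 1 after median-of-ratios scaling. KRT14, a basal keratin, went from 719 ± 43.0 TPM in shCTRL to means between 1602 TPM in shERCC4 and 3934 TPM in shERCC6. KRT1, a keratin of differentiating epidermis, went from 0.476 ± 0.144 TPM in shCTRL to 187 ± 18.1 TPM in shXPA and 35.1 ± 0.272 TPM in shXPC, and KRT4, a mucosal keratin, from 0.916 TPM to 127 and 46.6 TPM. With shCTRL means under 1 TPM, KRT1 and KRT4 could not pass the filter on shCTRL libraries alone. Their rises are thus part of how they were admitted, and both are among the keratins counted above. In shERCC4 KRT1 fell (log2 -0.65, not called after median-of-ratios scaling at -0.51), and KRT4 fell (-1.22), with 2 of 3 libraries listed at 0. Both of these falls are between values near 0. KRT7, a simple-epithelial keratin, fell in all 5 lines, from 3193 TPM to means of 604 TPM in shXPA to 1397 TPM in shERCC6.

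Of 17 regulators of epithelial identity tested, 9 rose and 4 fell on average, or 10 and 3 after median-of-ratios scaling. TP63, the master regulator of stratified epithelium, was at 9.77 ± 0.973 TPM in shCTRL and rose in all 5 lines, to means of 22.0 TPM in shERCC4 to 49.1 TPM in shXPA. ZNF750, a differentiation factor of the epidermis, rose in every line except shERCC4, where it was at -0.37 on the log2 scale. SNAI2, a Snail-family repressor, was at 47.7 ± 2.93 TPM in shCTRL and fell in every line except shERCC6, where it was at -0.50, and the fall in shERCC5 was not called after median-of-ratios scaling (-0.58).

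Genes of the adherens junction, the neighbouring actin-linked junction, were mixed: of 12 tested, 3 rose (CDH3, PVRL1 and PVRL4) and 4 fell (VCL, TJP1, CTNNB1 and SHROOM3) on average, and after median-of-ratios scaling 5 were called higher and only VCL lower. VCL, vinculin of the actin linkage, fell from 99.7 ± 7.56 TPM in shCTRL to means of 28.3 TPM in shERCC4 to 49.7 TPM in shERCC6. PVRL1, a nectin, rose in every line except shERCC4, where it was at 0.36, or 0.79 and called after scaling. CTNNB1, the plakoglobin relative beta-catenin, was at 158 ± 0.956 TPM in shCTRL and at 93.7 TPM in shXPA, a fall (log2 -0.75) that scaling took to -0.40 without a call. CDH3, P-cadherin, rose in shXPC, shERCC4, shERCC5 and shERCC6, by log2 1.18, 0.59, 1.34 and 0.82, and was at 0.58 in shXPA. Of 19 genes listed for desmosome turnover 1 rose and 10 fell on average, and 1 and 3 after median-of-ratios scaling. Among all genes tested 7.84% rose and 28.6% fell for the mean of the 5 lines, or 2272 and 1955 of 16382 after scaling. SPINK5, an inhibitor of the kallikreins that cleave corneodesmosomes, rose in all 5 lines, from 1.56 ± 0.402 TPM to 37.0 ± 2.48 TPM in shXPA and 35.1 ± 1.47 TPM in shERCC5. ATP2A2, the calcium pump mutated in Darier disease, fell in every line except shERCC6, and KIF5B, a kinesin heavy chain, in the same 4. After median-of-ratios scaling ATP2A2 was no longer called in shXPA (-0.48) and shERCC4 (-0.40), nor KIF5B in shXPA (-0.55), shXPC (-0.54) and shERCC4 (-0.47). MMP9, a secreted protease, fell in all 5 lines from 4.12 ± 0.675 TPM, with libraries of shXPA and shERCC6 listed at 0.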

How the data were processed

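The authors extracted RNA from 3 replicates of each line, depleted rRNA, sequenced the libraries and quantified them with kallisto, version 0.43.1 per the submitters' processing notes, while the methods name a later version, against hg38. The deposited values are TPM per gene symbol. The annotation and the summing to genes are not given in the sources used here. TPM keep no depth, so no counting interval was computed.

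R 4.3.3 with limma 3.58.1, Python 3.11.15, pandas 2.3.3 and matplotlib 3.10.9 were used. Genes that reached 1 TPM in 3 or more libraries (16382 of 22031) were fitted on log2(TPM + 0.5) with a coefficient per line, empirical Bayes moderation with a mean-variance trend and 12 residual degrees of freedom. Storey's q used lambda 0.5 and can lie below its p where most genes change. The p-values measure the spread between libraries of a line, not between lines. Tested on simulated data for the 5 comparisons with shCTRL, the fit found 74% to 86% of true changes of log2 1, and 95% to 100% at log2 2, with 2 to 7 false calls among 15538 genes. Only 100 genes changed at each size in each simulated comparison. The real comparisons called 4288 (shERCC6) to 7838 (shXPC) genes, so these rates may not carry over to them.

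Libraries were grouped by the shRNA in the labels. The members and all gene lists were chosen with earlier results of these data known. All members are described. Of each list, up to 4 genes with the smallest q for the mean of the 5 lines are named, with every further desmosome gene, and for each member the 3 most correlated genes of at least 5 TPM. The result of 1 gene that this rule names is not reported here. PVRL1 and PVRL4 are the table's names of NECTIN1 and NECTIN4. Alternatives were pseudocounts of 0.1 and 1, no filter, a filter of 5 TPM, median-of-ratios and quantile scaling, Benjamini-Hochberg adjustment, the fold threshold inside the test, an unmoderated spread, separate fits, a replicate block, leaving out each library, and, chosen after seeing the data, leaving out CTD-2328D6.1. Positions are GENCODE 29 and promoters RefSeq GRCh38.p14. No column of per-sample values was left unmapped.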

Additional observations from a re-analysis of the deposited data

Results flagged for a closer look

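In 8 of the 10 members the fold change against shCTRL differed between dNER lines by the test of the difference itself, and the widest called difference of each is given here. Of all genes tested 56.3% were called between at least 1 of the 10 pairs of dNER lines. The limma fit over all genes gave each difference and its Storey q. DSG1 in shXPA lay 4.31 above shERCC4 on the log2 scale (q = 1.3e-10). PKP1 lay 2.69 higher in shXPA than in shERCC4 (q = 5.3e-07), from effects of 2.37 and -0.33. DSG1 and PKP1 entered the test only through libraries of the lines where they were high, so these 2 differences are a description. DSC2 lay 2.12 higher in shXPC than in shERCC4 (q = 8.4e-08), DSG3 1.91 higher (q = 1.0e-06) and DSP 0.90 higher (q = 8.4e-05) in the same pair. DSC3 lay 1.44 higher in shXPA than in shERCC4 (q = 3.9e-06). JUP in shERCC4 against shERCC5 was at -1.25 (q = 2.0e-06), and PKP2 in shXPA against shERCC6 at -2.42 (q = 1.0e-09), with effects of -1.75 and 0.67 against shCTRL. The shERCC4 line is one side of 7 of these 8 differences, and its replicate 1 is the library in which CTD-2328D6.1 took 26.5% of TPM. DSG2 and PKP3 gave no called difference between dNER lines.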

How the results depend on the processing

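The counts of members called turned on the scaling and on how the fold threshold was applied. Median-of-ratios scaling and quantile normalization each gave 1 member lower in shXPA against 2, 0 lower in shXPC against 2, 0 lower in shERCC4 against 2, 5 higher in shERCC4 against 3, and 0 lower for the mean of the 5 lines against 1. Of 60 member values each ended 6 calls and added 9, all higher. Those added were PKP3 in every line but shXPA, PKP2 in shERCC4 and shERCC5, JUP in shERCC6, and PKP3 and DSC2 for the mean. Smaller changes in a count are left out of this paragraph. With the fold threshold inside the test there were 0 lower in shXPC, 1 higher and 0 lower in shERCC4, 3 higher in shERCC5, 2 higher in shERCC6 and 0 lower for the mean. A pseudocount of 0.1 gave 4 lower in shERCC4, DSG1 and PKP1 being added. Leaving out CTD-2328D6.1, chosen after seeing the data, gave 1 lower in shERCC4 and 0 lower for the mean.

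Over the 18 fits that each left out 1 library, members lower in shXPC ranged from 1 to 2, members higher in shERCC4 from 1 to 4 and members lower in shERCC4 from 0 to 2. Members higher ranged from 7 to 8 in shXPC, from 5 to 6 in shERCC6 and from 6 to 7 for the mean. The 1 higher in shERCC4 was reached without shCTRL replicate 3 or shERCC4 replicate 3, and the 0 lower without shERCC4 replicate 1. No result reversed. Of 1080 member values in these fits, against shCTRL or for the mean, 1061 kept their call. All 60 kept it with no filter and with an unmoderated spread. Separate fits kept the 45 they could give, with no value for the mean of the 5 lines, for DSG1 in shERCC4 and shERCC5, or for PKP1 in shERCC4, shERCC5 and shERCC6. A filter of 5 TPM left out PKP1 and kept the other 54.

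Little sign was seen that the replicate numbers pair the libraries, which does not exclude a pairing. Correlating each library's deviation from its line's mean gave a median r of 0.00704 for 45 same-numbered pairs and -0.00144 for 90 others. Of 18 libraries 9 had their highest r with their own number, a count for which no baseline was computed. With the replicate block the members called remained 10 in shXPA, 9 in shXPC, 5 in shERCC4, 7 in shERCC5, 6 in shERCC6 and 7 for the mean, and all genes called in shXPA went from 7020 to 7030. PKP1 in shXPA against shXPC (0.66, limma q = 0.0496) was lost under the block (q = 0.058) and under most other alternatives. DSG1 and PKP1, at 0.0298 to 1.42 TPM outside shXPA and shXPC, are the members that low signal limits most.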
